A study of Mus musculus with 12 samples.

Results

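Hk2, Pgk1, Vegfa and Hilpda are genes of glycolysis and of the response to low oxygen, and they were taken by gene name from a deposited expression table of mouse cells. All 4 were found, out of 11669 genes in the table, and each was followed across the study's 4 treatment groups. RNA was sequenced after 24 h in 12 libraries, 3 for each of NP-D@MP, NP-D@M, NP@M and PBS. The labels call the cells an immune cell line, TAMC, from marrow, and the series title speaks of a nanodrug aimed at CDKs and coated with engineered cancer cell membrane. The labels do not spell out what NP, D, M and P stand for, so the groups keep these names. NP-D@MP and NP-D@M carry D, and NP@M and PBS do not. NP-D@M was set against NP@M, from which its label differs by D, and NP-D@MP against NP-D@M, from which its label differs by P. NP@M and NP-D@MP were each also set against PBS, the saline buffer.

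Cells take up glucose through transporters and break it down in the cytoplasm by glycolysis, which yields ATP and ends in pyruvate or lactate. When oxygen falls, the alpha subunits of the hypoxia-inducible factors (HIF) escape hydroxylation by prolyl hydroxylases and destruction through the VHL ubiquitin ligase, pair with Arnt, and switch on genes through short sites with the core ACGTG or GCGTG. Hk2 encodes a hexokinase, which traps glucose in the cell as glucose 6-phosphate. Pgk1 encodes phosphoglycerate kinase, an ATP-forming step of lower glycolysis. Vegfa encodes a secreted growth factor for blood vessels, and Hilpda encodes a small lipid droplet protein that inhibits the lipase Pnpla2. All 4 are known targets of HIF, and macrophages with an inflammatory or hypoxic programme are known to raise them.

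The promoters are shown because the 4 genes share HIF as a known regulator and yet differ in the readout. Windows of 300 bases, from 250 before to 50 after a RefSeq start on GRCm38.p6, were searched for ACGTG and GCGTG on both strands. Capitals mark each match in the sense direction of the gene, so that CACGT is ACGTG on the other strand. Hk2 is shown at chr6:82774405-82774704 on the minus strand, Pgk1 at chrX:106186850-106187149 on the plus strand, Vegfa at chr17:46032328-46032627 on the minus strand and Hilpda at chr6:29272376-29272675 on the plus strand.
Hk2: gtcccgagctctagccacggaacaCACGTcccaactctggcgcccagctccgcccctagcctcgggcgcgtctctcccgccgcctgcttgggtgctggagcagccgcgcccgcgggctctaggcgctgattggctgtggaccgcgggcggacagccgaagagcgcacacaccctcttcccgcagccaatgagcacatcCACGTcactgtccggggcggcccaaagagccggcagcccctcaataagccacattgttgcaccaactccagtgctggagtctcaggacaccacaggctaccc
Pgk1: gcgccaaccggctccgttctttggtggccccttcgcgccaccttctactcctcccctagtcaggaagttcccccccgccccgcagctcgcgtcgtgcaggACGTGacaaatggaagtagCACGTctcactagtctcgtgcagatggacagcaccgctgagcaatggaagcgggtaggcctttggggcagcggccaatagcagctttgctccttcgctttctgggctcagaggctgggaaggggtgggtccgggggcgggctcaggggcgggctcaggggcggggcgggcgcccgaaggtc
Vegfa: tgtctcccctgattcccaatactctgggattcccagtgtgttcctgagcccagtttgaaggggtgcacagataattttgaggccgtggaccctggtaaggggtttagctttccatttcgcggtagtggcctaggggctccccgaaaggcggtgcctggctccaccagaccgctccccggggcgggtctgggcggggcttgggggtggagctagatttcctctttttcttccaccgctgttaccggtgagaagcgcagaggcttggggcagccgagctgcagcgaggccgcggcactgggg
Hilpda: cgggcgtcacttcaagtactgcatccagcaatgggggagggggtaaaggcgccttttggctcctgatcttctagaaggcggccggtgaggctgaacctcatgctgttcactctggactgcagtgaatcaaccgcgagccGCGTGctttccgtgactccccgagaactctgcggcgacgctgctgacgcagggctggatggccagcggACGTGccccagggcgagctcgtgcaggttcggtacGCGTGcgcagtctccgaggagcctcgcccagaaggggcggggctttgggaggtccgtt
The Hk2 window held 2 matches, starting 226 and 52 bases before the start, and the Pgk1 window held 2, starting 150 and 131 bases before it. The Hilpda window held 3. The window of another start of the same gene, at chr6:29272238-29272537, overlaps it and had 1. That match is 1 of the same 3, the one starting 111 bases before the start. These letters were absent from the Vegfa window shown, while a second RefSeq start at chr17:46025114-46025413 had 2. Of 32851 mouse promoter windows of this length, 43.8% held at least 1 match and 19.6% held ACGTG, so a match by itself does not set a gene apart. In the windows shown, Hk2, Pgk1 and Hilpda had such letters and Vegfa did not. Whether these letters bear on the changes with D was not tested.

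Values are deposited FPKM, a level per length of the gene and per depth of the library. Each value times its gene length was a whole multiple of 1 step per library, so reads could be recovered, 14444950 to 17338264 per library. The library size implied by the deposited scaling was 0.468 to 0.553 times the recovered reads in the 6 libraries with D and 2.19 to 2.36 times in the 6 without. Replacing it by the read totals lowered log2 fold changes by 2.17 for NP-D@M against NP@M and by 2.24 for NP-D@MP against PBS before any pseudocount, so both scales are given wherever a direction depends on it. Genes listed at 0 made up 8.94% to 13.4% of the table in libraries with D. Without D they made up 2.65% to 2.96% in 4 libraries but 9.31% in PBS replicate 3 and 9.11% in NP@M replicate 2, the pair that stands apart. The 12 macrophage markers were all tested and took 2.64% to 2.75% of reads in NP-D@MP, 2.50% to 3.04% in NP-D@M, 1.19% to 1.32% in NP@M and 1.14% to 1.58% in PBS. Of 11 neutrophil markers, 9 were tested, with 0.0638% to 0.108% of reads in NP-D@MP, 0.0376% to 0.0594% in NP-D@M, 0.0945% to 0.211% in NP@M and 0.182% to 0.243% in PBS. Their summed deposited FPKM was 2015 to 3254 in NP-D@MP and 1055 to 1748 in NP-D@M. It was 485 to 1176 in NP@M and 1034 to 1422 in PBS, so the direction for neutrophil markers depends on the scale. Of the marker lists for other cells, 1 of 8 genes was tested for T and NK cells, 0 of 5 for B cells, 0 of 7 for erythroid cells, 1 of 7 for epithelium and 3 of 5 for endothelium. The part of these shares in the results below was not tested, and in bulk RNA fewer cells of a type and less RNA per cell cannot be told apart. The extraction protocol speaks of retinas, and none of 10 retina markers was in the table. Nothing in the labels says that the libraries of a group came from separate cultures, so the spread behind each p-value may be technical.

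With D, transcripts of Hk2, Vegfa and Hilpda fell to a small part of their level without D, and Pgk1 did not fall with them. In ratios of mean FPKM, Hk2 was 20.1-fold lower in NP-D@M than in NP@M and 27.9-fold lower in NP-D@MP than in PBS. Hilpda was 18.0-fold and 28.6-fold lower in the same comparisons, and Vegfa was 6.12-fold and 6.51-fold lower. Pgk1 was 4.24-fold and 4.04-fold higher as deposited, but its mean was 0.944 and 0.856 times that of NP@M and PBS when scaled to read totals. The plot of levels by library shows both scales.

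**Figure D1:**
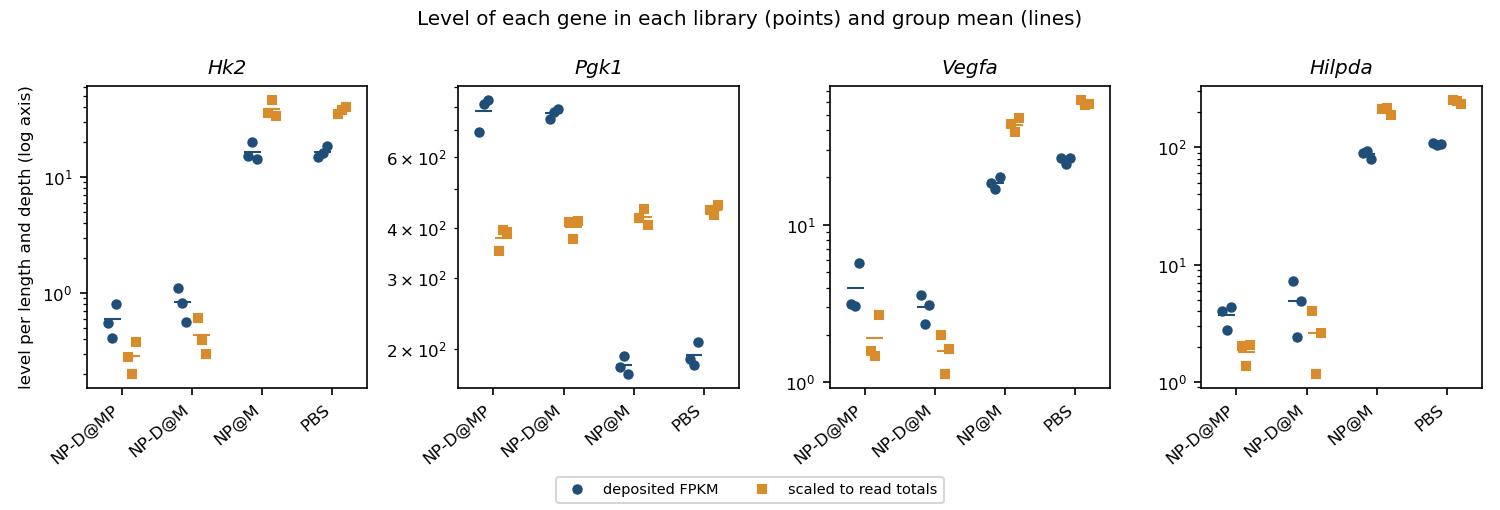
Level of Hk2, Pgk1, Vegfa and Hilpda (log axis, per gene length and library depth) in the 12 libraries by treatment, with circles for deposited FPKM, squares for values scaled to read totals and short lines for group means. Hk2, Vegfa and Hilpda lie lower in every library with D than in every library without D on both scales, whereas Pgk1 lies higher with D as deposited, between 694 and 835 FPKM, and between 350 and 456 in all 12 libraries when scaled to read totals. The share of all tested genes that separate in this way was not counted.

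Hk2 (ENSMUSG00000000628) lies at chr6:82725025-82774454 on the minus strand of GRCm38, with 4 annotated transcripts and 5969 exonic bases. Its 3 libraries read 0.556, 0.411 and 0.809 FPKM in NP-D@MP and 1.10, 0.812 and 0.567 FPKM in NP-D@M. In NP@M they read 15.4, 20.2 and 14.3 FPKM, and in PBS 15.0, 16.1 and 18.4 FPKM. The libraries with D did not overlap those without, while NP-D@MP overlapped NP-D@M and NP@M overlapped PBS. Behind these values stood 20 to 57 reads per library with D and 3070 to 4235 without; the smallest count, 20 reads, has an exact 95% Poisson interval of 12.2 to 30.9, which covers counting error only. The log2 fold change on the scale of log2(FPKM + 1), which understates changes of low genes, was -3.26 (SE 0.18) for NP-D@M against NP@M, with an adjusted p of 1.02e-07 by limma. For NP-D@MP against PBS it was -3.46 (SE 0.18), with an adjusted p of 8.12e-08 by limma. With read totals the changes were -4.79 and -4.91. An antisense gene, Gm17034, overlaps Hk2 in the annotation, and whether counting used strand is not stated, so reads of the pair cannot be told apart.

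Pgk1 (ENSMUSG00000062070) lies at chrX:106187100-106203699 on the plus strand, with 3 transcripts and 2244 exonic bases. It measured 694, 814 and 835 FPKM in NP-D@MP and 749, 778 and 791 FPKM in NP-D@M. In NP@M it measured 181, 192 and 174 FPKM, and in PBS 189, 183 and 208 FPKM. As deposited, every library with D was above every library without. The log2 fold change was 2.08 (SE 0.16) for NP-D@M against NP@M, with an adjusted p of 6.51e-07 by limma, and 2.01 (SE 0.16) for NP-D@MP against PBS, with an adjusted p of 8.15e-07 by limma. This rise depends on how the libraries were scaled. With library medians made equal, which also replaces the deposited factor, the log2 fold changes were 2.61 and 2.51. Their adjusted p were 9.86e-08 and 1.23e-07 by limma. The recovered reads were 13623 to 15743 with D and 14358 to 15625 without, and scaled to read totals Pgk1 averaged 379 ± 25.3 in NP-D@MP, 402 ± 23.3 in NP-D@M, 426 ± 18.6 in NP@M and 443 ± 12.7 in PBS (SD, n = 3 each). On that scale the log2 fold changes were -0.08 and -0.23, with adjusted p of 0.628 and 0.188 by limma. Quantile normalization gave -0.59 (adjusted p of 0.0724 by limma) and -0.73 (adjusted p of 0.0327 by limma), the last of them called lower. Pgk1 has processed copies in the mouse genome, and how reads shared with them were counted is not stated; the 1 copy in the table, Pgk1-rs7, took 40 to 74 reads per library.

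Vegfa (ENSMUSG00000023951) lies at chr17:46016993-46032369 on the minus strand, with 13 transcripts, which the table does not separate. It read 3.15, 3.04 and 5.70 FPKM in NP-D@MP and 3.59, 2.35 and 3.10 FPKM in NP-D@M. In NP@M it read 18.5, 16.8 and 20.1 FPKM, and in PBS 26.5, 24.3 and 26.5 FPKM. The libraries with D stayed below those without, at 79 to 192 reads against 2530 to 3974. NP-D@M against NP@M gave a log2 fold change of -2.28 (SE 0.21), with an adjusted p of 2.14e-06 by limma. NP-D@MP against PBS gave -2.47 (SE 0.21), with an adjusted p of 1.21e-06 by limma. With read totals the changes were -4.10 and -4.39. Vegfa was also lower in each NP@M library than in each PBS library, a pattern taken up below.

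Hilpda (ENSMUSG00000043421) lies at chr6:29272488-29275446 on the plus strand, with 2 transcripts and 1103 exonic bases. It read 4.04, 2.78 and 4.38 FPKM in NP-D@MP and 7.24, 2.43 and 4.91 FPKM in NP-D@M. In NP@M it read 89.5, 93.3 and 79.9 FPKM, and in PBS 109, 105 and 106 FPKM. Hilpda was the 151st to 267th most abundant gene per length in the libraries without D and ranked between 2993 and 4389 with D. The log2 fold change was -4.01 (SE 0.28) for NP-D@M against NP@M, with an adjusted p of 3.21e-07 by limma, and -4.52 (SE 0.28) for NP-D@MP against PBS, with an adjusted p of 1.61e-07 by limma. With read totals the changes were -5.92 and -6.46. The values with D rest on 21 to 69 reads per library, and the spread within NP-D@M, 4.86 ± 2.41 FPKM (SD, n = 3), came with counts of 69, 21 and 48 reads.

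These calls have to be read against the background of the table, in which most genes were called. In NP-D@M against NP@M, 45.2% of the 8615 tested genes were called higher and 46% lower as deposited, and 9.12% higher and 61.7% lower with read totals. In NP-D@MP against PBS the shares were 45.7% higher and 45.8% lower as deposited, and 9.01% and 62.4% with read totals. That 3 of the 4 genes were called lower is therefore no result about them as a group. How many tested genes had no overlap between libraries with and without D was not counted. The lack of overlap of the members therefore does not set them apart either. The median log2 fold change over all tested genes in NP-D@M against NP@M was 0.16 as deposited and -1.47 with read totals, and Hk2, Vegfa and Hilpda lay below it on both scales. Pgk1 lay above it on both, but below it with quantile normalization, at -0.59 against -0.12. In NP-D@MP against PBS, Pgk1 with quantile normalization was at -0.73 against a median of -0.13. The falls of Hk2, Vegfa and Hilpda kept their direction and stayed called in the 2 comparisons under each of the 16 alternatives run, with log2 fold changes between -7.08 and -1.84. The plot of fold changes by setting shows the main ones.

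**Figure D2:**
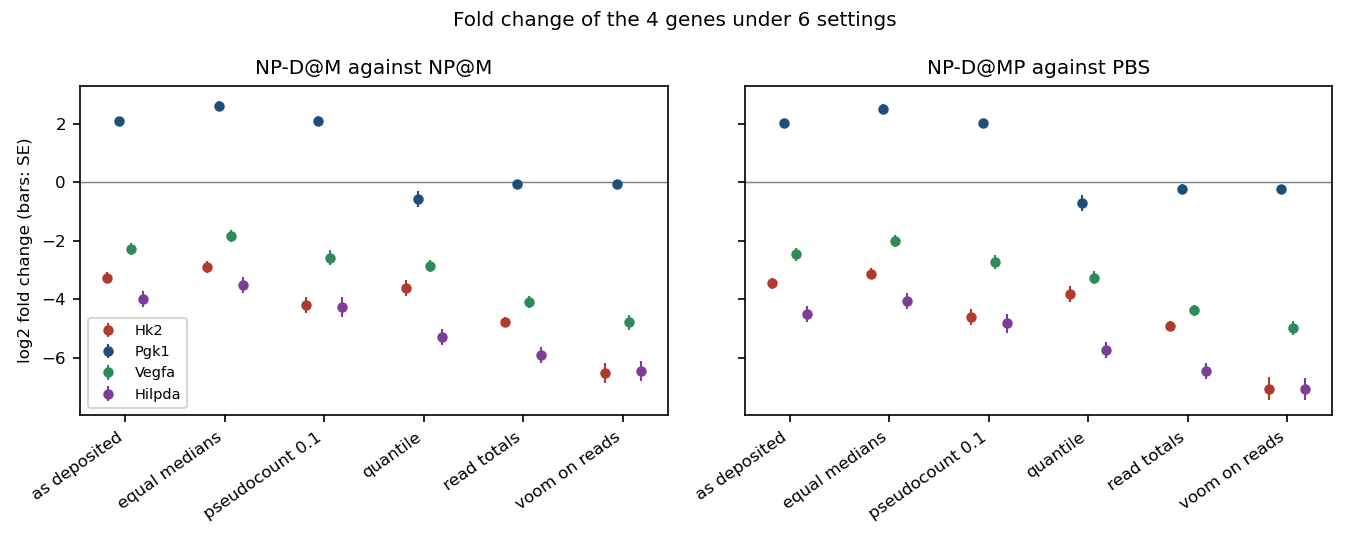
Log2 fold change (points) with its SE (bars) of the 4 genes under 6 ways of scaling or testing, for NP-D@M against NP@M on the left and NP-D@MP against PBS on the right. Hk2, Vegfa and Hilpda stay below 0 under all 6. Pgk1 is at 2.08 and 2.01 as deposited and at 2.61 and 2.51 with equal medians. It is between -0.73 and -0.08 with quantile normalization, read totals and voom on the recovered reads.

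Ranks and ratios within a library do not depend on the scaling between libraries. By level per length among the 11669 genes, Hk2 ranked between 5575 and 7247 in the libraries with D and between 931 and 1517 in those without. Vegfa ranked between 3345 and 4447 with D and between 711 and 1227 without. Pgk1 was near the top throughout, at rank 151 to 175 with D and rank 61 to 128 without. The log2 ratio of Hk2 to Pgk1 was -10.42 ± 0.48 in NP-D@MP and -9.92 ± 0.52 in NP-D@M, against -3.47 ± 0.19 in NP@M and -3.55 ± 0.09 in PBS (SD, n = 3 each). The log2 ratio of Pgk1 to Hilpda was 7.73 ± 0.41 in NP-D@MP and 7.45 ± 0.82 in NP-D@M, against 1.06 ± 0.05 in NP@M and 0.86 ± 0.10 in PBS (SD, n = 3 each). These ratios moved by 6 or more log2 units between libraries with and without D, far beyond their spread. By contrast the log2 ratio of Hk2 to Hilpda was -2.69 ± 0.22 in NP-D@MP and -2.47 ± 0.80 in NP-D@M, against -2.41 ± 0.18 in NP@M and -2.70 ± 0.17 in PBS (SD, n = 3 each), so that these 2 genes fell by similar factors. Vegfa fell less: its log2 ratio to Hilpda was 0.05 ± 0.38 in NP-D@MP and -0.57 ± 0.49 in NP-D@M, against -2.25 ± 0.24 in NP@M and -2.05 ± 0.06 in PBS (SD, n = 3 each).

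The order of levels per length also differed between libraries with and without D. In NP@M and PBS it ran Pgk1, Hilpda, Vegfa, Hk2, with Vegfa and Hk2 overlapping in NP@M, where Vegfa averaged 18.5 ± 1.66 FPKM and Hk2 16.6 ± 3.13 FPKM (SD, n = 3 each). In NP-D@MP, Vegfa at 3.96 ± 1.50 FPKM and Hilpda at 3.73 ± 0.84 FPKM (SD, n = 3 each) did not differ beyond their spread. In NP-D@M, Hilpda and Vegfa overlapped too, and Hk2 was lowest in both groups with D. Across the groups, Hk2 ran from low to high as NP-D@MP, NP-D@M, PBS and NP@M, and its libraries overlapped within each pair of neighbours with and without D. Vegfa ran NP-D@M, NP-D@MP, NP@M and PBS, and Hilpda NP-D@MP, NP-D@M, NP@M and PBS; for both genes the groups with D overlapped each other, and NP@M did not overlap PBS. Pgk1 ran NP@M, PBS, NP-D@M and NP-D@MP as deposited, with overlap within the pair without D and within the pair with D.

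The other 2 comparisons separated the members little. P in the label made no difference that passed the test: NP-D@MP against NP-D@M gave log2 fold changes of -0.20 (SE 0.18) for Hk2, 0.01 (SE 0.16) for Pgk1, 0.28 (SE 0.21) for Vegfa and -0.23 (SE 0.28) for Hilpda, with adjusted p of 1 by limma, and the groups overlapped for each gene. None of the 8615 genes was called in that comparison, 0% by limma, while 428 had an unadjusted p under 0.05 and voom called 1. NP@M against PBS gave log2 fold changes of 0.00 (SE 0.18) for Hk2 and -0.08 (SE 0.16) for Pgk1, with overlapping groups. For Vegfa it was -0.46 (SE 0.21), with 18.5 ± 1.66 FPKM in NP@M and 25.8 ± 1.27 FPKM in PBS (SD, n = 3 each), and for Hilpda -0.28 (SE 0.28), with 87.6 ± 6.88 FPKM in NP@M and 107 ± 1.78 FPKM in PBS (SD, n = 3 each). Neither passed the limma test, with adjusted p of 1, and the unadjusted p for Vegfa was 0.0498 by limma. Both genes were lower in 3 of 3 NP@M libraries than in any PBS library as deposited, which held for 1.14% of tested genes. The 2 genes did not overlap between these groups when scaled to read totals either, but the share of tested genes for which that held was not computed. In this comparison 1 gene, or 0.0116%, was called by limma, 27 had an unadjusted p under 0.05, and voom called 0.

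Hk2 is 1 of 3 hexokinase genes in the table, and the makeup of the 3 changed with D. Hk3, the hexokinase typical of myeloid cells, had 215 ± 44.1 FPKM in NP-D@MP and 172 ± 11.7 FPKM in NP-D@M, against 36.0 ± 1.44 FPKM in NP@M and 32.8 ± 4.48 FPKM in PBS (SD, n = 3 each). Hk1, the widely expressed form, had 1.83 ± 0.15 FPKM in NP-D@MP and 1.87 ± 0.46 FPKM in NP-D@M, against 7.09 ± 1.04 FPKM in NP@M and 7.26 ± 0.94 FPKM in PBS (SD, n = 3 each). As a share of the hexokinase FPKM within a library, Hk2 made up 0.274% ± 0.0861 in NP-D@MP and 0.471% ± 0.135 in NP-D@M, against 27.7% ± 4.07 in NP@M and 29.4% ± 5.16 in PBS (SD, n = 3 each). The 6 libraries with D ranged from 0.212% to 0.617% and the 6 without from 25.2% to 35.1%. The difference of means, with minus without D, was -28.2 percentage points, with a 2-sided exact permutation p of 0.00216 (n = 6 each), the smallest that this design can give. This pools NP-D@MP with NP-D@M and NP@M with PBS. The genes were chosen with earlier results of these data known, and how often shares of other genes separate so fully was not computed. The p therefore describes the split of these libraries and cannot set Hk2 apart from other genes. Without PBS replicate 3 and NP@M replicate 2, whose Hk2 shares were the highest, the difference was -25.6 points, with an exact permutation p of 0.00952 (n = 6 and 4). Hk3 changed by a log2 fold of 2.22 (SE 0.19) in NP-D@M against NP@M as deposited, with an adjusted p of 1.26e-06 by limma, and by 0.08 with read totals, with an adjusted p of 0.73 by limma. The share of Hk2 within a library does not depend on the scaling between libraries, whereas the call of Hk3 does.

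**Figure D3:**
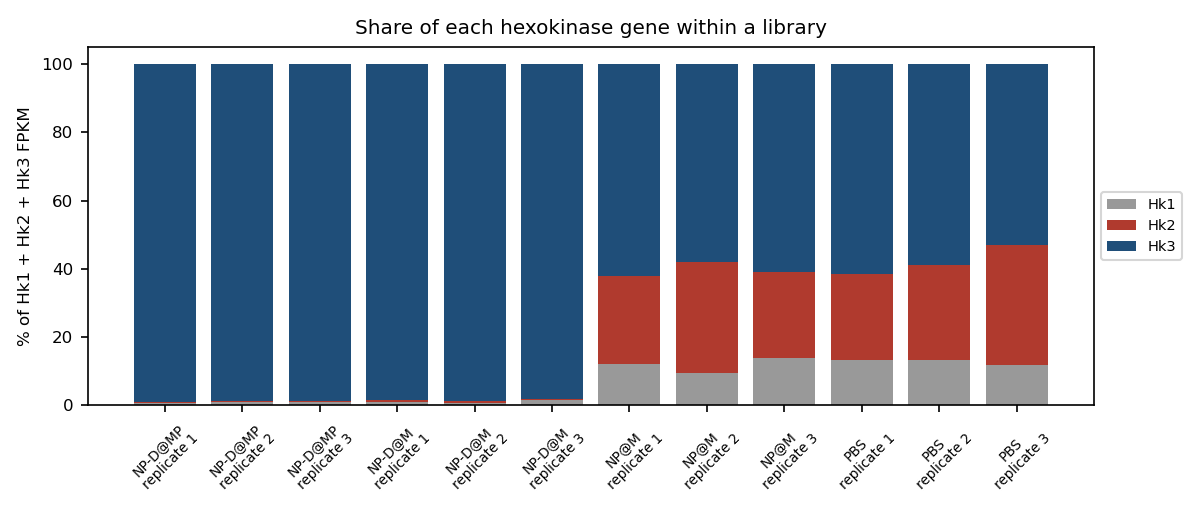
Share of Hk1, Hk2 and Hk3 in their summed FPKM (percent, bars starting at 0) in each of the 12 libraries. In the 6 libraries of NP-D@MP and NP-D@M almost the whole bar is Hk3, and Hk2 is at most 0.617%, whereas Hk2 is 25.2% to 35.1% in the 6 libraries of NP@M and PBS.

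Of the 25 genes listed for glucose uptake, glycolysis and lactate handling, 23 were in the table and all 23 were tested. As deposited, 13 were called higher and 8 lower in NP-D@M against NP@M, where 45.2% and 46% of all tested genes were called higher and lower. The median log2 fold change of the list was 1.42, against 0.16 over all tested genes. In NP-D@MP against PBS, 14 were higher and 7 lower, beside 45.7% and 45.8% of all tested genes. With read totals the counts were 1 higher and 11 lower in NP-D@M against NP@M, beside 9.12% and 61.7% of all tested genes, with a median of -0.47 against -1.47. In NP-D@MP against PBS they were 1 higher and 12 lower, beside 9.01% and 62.4%. With quantile normalization the median of the list lay below that of all tested genes instead. It was -0.59 against -0.12 in NP-D@M against NP@M, and -0.73 against -0.13 in NP-D@MP against PBS. The place of the list relative to the table thus depends on the normalization.

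In NP-D@M against NP@M, 46% of all tested genes were called lower as deposited and 61.7% with read totals. The share called lower on both scales was not counted. Of the 23 glycolysis genes, 8 were called lower on both scales in that comparison, which does not set the list apart. They were Hk2 and Hk1; the glucose transporters Slc2a1 and Slc2a3; Pfkl, a subunit of phosphofructokinase; Pfkfb3 and Pfkfb4, which set the level of fructose 2,6-bisphosphate; and Slc16a3, a lactate exporter. Slc2a1 averaged 15.5 ± 0.37 FPKM in NP-D@M and 49.6 ± 1.87 FPKM in NP@M (SD, n = 3 each), a log2 fold change of -1.62 (SE 0.18), with an adjusted p of 8.34e-06 by limma. Pfkfb4 averaged 0.247 ± 0.126 FPKM in NP-D@M and 6.16 ± 0.44 FPKM in NP@M (SD, n = 3 each), a log2 fold change of -2.52 (SE 0.17), with an adjusted p of 2.39e-07 by limma. Pfkfb3 changed by -1.84, Pfkl by -1.48 and Slc16a3 by -1.74 on the same log2 scale. Other genes of the same families did not share this: Hk3 was called higher as deposited, as was Pfkm, another phosphofructokinase subunit, with 2.13 ± 0.25 FPKM in NP-D@M and 0.826 ± 0.135 FPKM in NP@M (SD, n = 3 each). Pfkm was called lower with read totals. Slc16a1, another lactate transporter, averaged 4.77 ± 1.08 FPKM in NP-D@M and 3.55 ± 1.49 FPKM in NP@M (SD, n = 3 each), was not called as deposited and was called lower with read totals.

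Like Pgk1, 6 further glycolysis genes described next were called higher as deposited and were not called with read totals. The share of all tested genes with this pattern was not counted. Pgam1, the phosphoglycerate mutase after Pgk1, averaged 1362 ± 120 FPKM in NP-D@M and 266 ± 16.6 FPKM in NP@M (SD, n = 3 each), a log2 fold change of 2.35 (SE 0.16), with an adjusted p of 3.2e-07 by limma. Ldha, a lactate dehydrogenase subunit, averaged 1262 ± 255 FPKM in NP-D@M and 222 ± 24.5 FPKM in NP@M (SD, n = 3 each), a log2 fold change of 2.49 (SE 0.24). Gpi1, Aldoa, Eno1 and Pkm, of the steps before and after, changed by 1.78, 1.42, 1.74 and 1.93 on the log2 scale and were called higher as deposited. With read totals Pgam1 changed by 0.18, Ldha by 0.33, Gpi1 by -0.37, Aldoa by -0.74, Eno1 by -0.42 and Pkm by -0.23, and none of the 6 passed the limma test. Ldhb was called higher on both scales, with 2.57 as deposited and 0.62 with read totals, and Tpi1 was called in opposite directions, with 1.02 and -1.13. Gapdh was not called, with an adjusted p of 0.208 by limma; it read 2.41, 51.3 and 179 FPKM in NP-D@MP, 2.35, 2.16 and 116 FPKM in NP-D@M, 1.36, 1.72 and 1.25 FPKM in NP@M and 4.93, 15.6 and 0.543 FPKM in PBS. Gapdh, often used as a steady standard, thus varied widely between libraries of 1 group, and its many processed copies make its counting uncertain. The plot of glycolysis genes gives all 23.

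**Figure D4:**
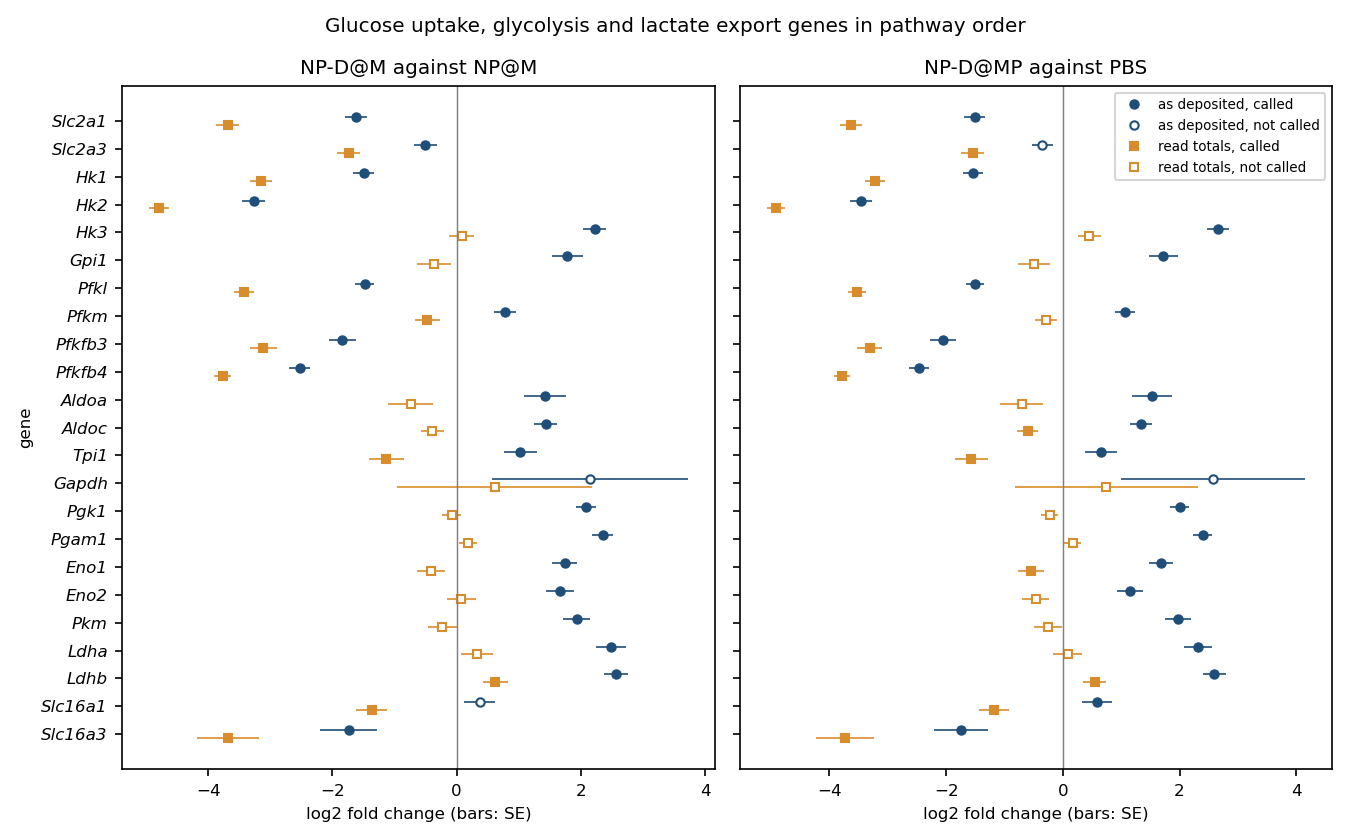
Log2 fold change (points) with SE (bars) of the 23 measured genes of glucose uptake, glycolysis and lactate handling, in pathway order from top to bottom, for NP-D@M against NP@M and NP-D@MP against PBS. Circles are deposited values and squares values scaled to read totals, filled where called by limma; Hk2 is at -3.26 and -4.79 in the left panel, and Pgk1 is at 2.08 and -0.08.

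Of the listed HIF targets, 33 were in the table and 30 were tested, the 4 members among them. As deposited, 16 were called higher and 13 lower in NP-D@M against NP@M, and 14 higher and 14 lower in NP-D@MP against PBS, beside 45.2% and 46%, and 45.7% and 45.8%, of all tested genes. With read totals the counts were 0 higher and 18 lower, and 1 higher and 21 lower, beside 9.12% and 61.7%, and 9.01% and 62.4%. The medians were 0.54 as deposited and -1.48 with read totals in NP-D@M against NP@M, the second next to -1.47 over all tested genes. The split as deposited was near that of the whole table, so it is no result about HIF targets. The 5 called lower with the smallest adjusted p were Bhlhe40, a transcriptional repressor, then Hk2, Pfkfb4, Hilpda and Vegfa. Bhlhe40 averaged 1.91 ± 0.26 FPKM in NP-D@M and 56.1 ± 3.58 FPKM in NP@M (SD, n = 3 each), a log2 fold change of -4.30 (SE 0.16), with an adjusted p of 4.88e-08 by limma. Those called higher included Pgk1, Ldha, P4ha1 and P4ha2. P4ha1, a collagen prolyl hydroxylase subunit, averaged 128 ± 26.3 FPKM in NP-D@M and 24.0 ± 6.87 FPKM in NP@M (SD, n = 3 each), a log2 fold change of 2.38 as deposited and 0.26 with read totals. P4ha2, another such subunit, changed by 0.99 as deposited and 0.11 with read totals. Neither P4ha1 nor P4ha2 passed the limma test with read totals.

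The HIF pathway's own genes were measured for 14 of 16 listed, all tested, and all 14 were called in both comparisons as deposited, 5 higher and 9 lower. Of all tested genes, 45.2% were called higher and 46% lower in NP-D@M against NP@M, and 45.7% and 45.8% in NP-D@MP against PBS, so that being called does not set these genes apart. With read totals 1 was higher and 10 lower in NP-D@M against NP@M, and 2 higher and 10 lower in NP-D@MP against PBS, beside 9.12% and 61.7%, and 9.01% and 62.4%, of all tested genes. Hif1a, the alpha subunit of HIF-1, read 2.52, 1.60 and 1.40 FPKM in NP-D@MP and 3.04, 3.01 and 2.96 FPKM in NP-D@M. In NP@M it read 22.8, 45.9 and 24.7 FPKM, and in PBS 21.2, 28.8 and 54.6 FPKM. The log2 fold change of Hif1a was -2.93 (SE 0.34) for NP-D@M against NP@M, with an adjusted p of 1.23e-05 by limma, and -4.77 with read totals. Its highest values without D were in PBS replicate 3 and NP@M replicate 2, the libraries that stood apart. Epas1, the alpha subunit of HIF-2, moved the other way on both scales, with 24.6 ± 7.48 FPKM in NP-D@M and 2.85 ± 0.43 FPKM in NP@M (SD, n = 3 each). The change of Epas1 on the log2 scale was 2.69 as deposited (SE 0.25), with an adjusted p of 2.59e-06 by limma, and 0.81 with read totals, with an adjusted p of 0.00947 by limma.

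Genes that restrain HIF also changed. Vhl, the substrate receptor of the ligase, averaged 0.782 ± 0.136 FPKM in NP-D@M and 9.33 ± 0.61 FPKM in NP@M (SD, n = 3 each), a log2 fold change of -2.54. Of the prolyl hydroxylases, Egln3 changed by -1.97 and Egln2 by -1.85, while Egln1 was called in opposite directions, with 0.56 as deposited and -1.49 with read totals. Hif1an, the asparaginyl hydroxylase, changed by -2.82, and the coactivator Ep300 by -2.61. The shared partner Arnt changed by -1.68. Elob, an adaptor of the VHL ligase, changed by 3.16 as deposited and by 1.03, not called, with read totals.

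**Figure D5:**
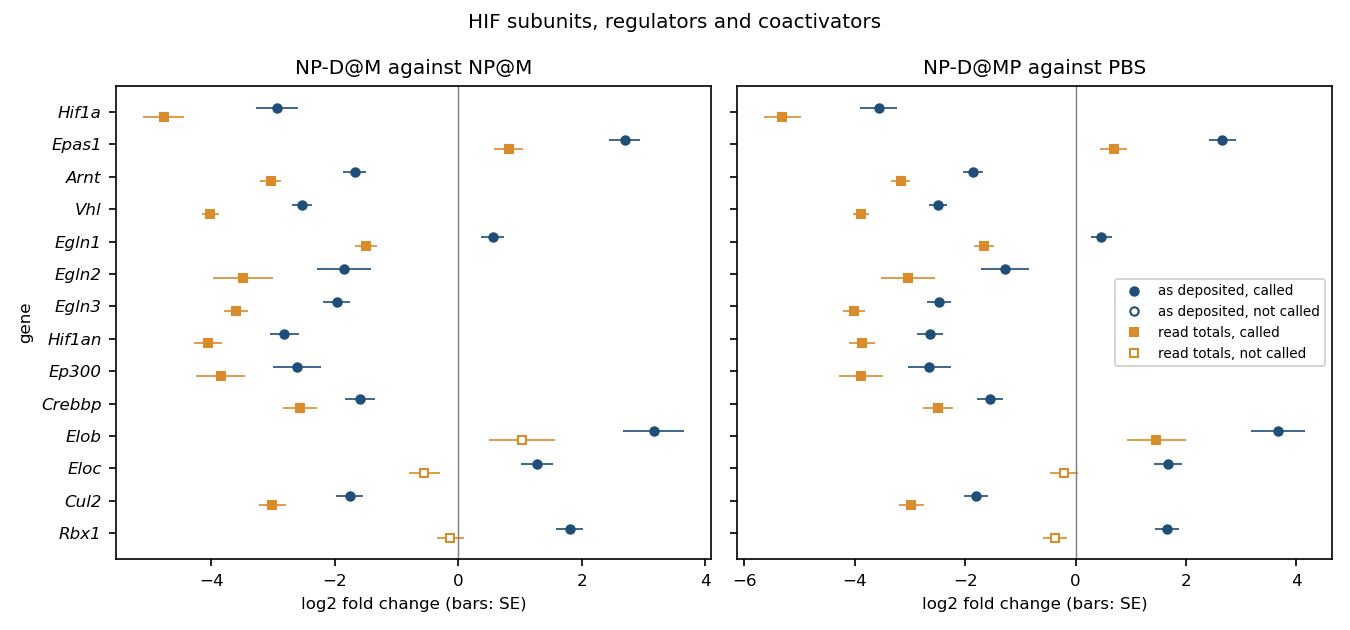
Log2 fold change (points) with SE (bars) of 14 genes of the HIF pathway for NP-D@M against NP@M and NP-D@MP against PBS, with circles for deposited values and squares for read totals, filled where called by limma. Hif1a lies at -2.93 and -4.77 and Epas1 at 2.69 and 0.81 in the left panel.

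Among VEGF ligands and receptors, 8 were in the table and 5 were tested. In NP-D@M against NP@M, 3 were called higher and 1, Vegfa, lower as deposited, beside 45.2% and 46% of all tested genes. With read totals 0 were higher and 2 lower, beside 9.12% and 61.7%. Vegfb, a ligand with a weak effect on vessel growth, averaged 48.5 ± 5.20 FPKM in NP-D@M and 4.30 ± 2.18 FPKM in NP@M (SD, n = 3 each), which is 3.32 on the log2 scale as deposited (SE 0.50), with an adjusted p of 8.71e-05 by limma, and 1.38 with read totals, with an adjusted p of 0.0662 by limma. The placental growth factor gene Pgf, at 1.37 ± 1.01 FPKM in NP-D@M and 2.30 ± 0.21 FPKM in NP@M (SD, n = 3 each), was not called as deposited and was called lower with read totals. The co-receptors Nrp1 and Nrp2 changed by 1.62 and 1.59 as deposited and were not called with read totals. In NP-D@MP against PBS, 3 of the 5 genes were called higher and 2 lower as deposited, beside 45.7% and 45.8% of all tested genes. With read totals 1 was higher and 3 lower in that comparison, beside 9.01% and 62.4%.

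Hilpda belongs to the lipid droplet genes, of which 8 of 11 listed were in the table and tested. In NP-D@M against NP@M, 7 were called lower and 0 higher as deposited, with a median of -2.05, beside 46% lower, 45.2% higher and a median of 0.16 over all tested genes. With read totals all 8 were lower, with a median of -4.00, beside 61.7% lower and a median of -1.47. In NP-D@MP against PBS, 7 were lower and 1 higher as deposited, beside 45.8% and 45.7%, and 8 were lower with read totals, beside 62.4%. G0s2, like Hilpda an inhibitor of Pnpla2, averaged 0.222 ± 0.144 FPKM in NP-D@M and 26.1 ± 11.1 FPKM in NP@M (SD, n = 3 each), a log2 fold change of -4.38 (SE 0.64), with an adjusted p of 6.72e-05 by limma. The droplet coat gene Plin2 averaged 60.5 ± 15.9 FPKM in NP-D@M and 207 ± 9.25 FPKM in NP@M (SD, n = 3 each), a log2 fold change of -1.79, and Plin3 changed by -2.32. The triglyceride synthesis genes Dgat2 and Dgat1 changed by -2.67 and -0.50, and the hormone-sensitive lipase gene Lipe by -1.55. Mgll, the monoacylglycerol lipase gene, was the exception as deposited, with 0.54 and no call, and changed by -1.54 with read totals. In NP-D@MP against NP-D@M and in NP@M against PBS, 0 genes of these 5 lists were called by limma. At an unadjusted p under 0.05 there were 0 in each list for NP-D@MP against NP-D@M, and for NP@M against PBS 1 in the HIF target list and 1 in the VEGF list, Vegfa in both cases.

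Genes whose level across the 12 libraries was most like that of each member were chosen by Pearson's r of log2(FPKM + 1) among 3494 tested genes with a mean of at least 5 FPKM. They share libraries and the deposited scaling, so the values describe and test nothing. Hk2 was most like Tnfaip2 (r = 0.998), Poldip3 (r = 0.997) and Ptk2b (r = 0.997), and Hilpda most like Tnfaip2 (r = 0.995), Syk (r = 0.994) and Poldip3 (r = 0.993). Pgk1 was most like Tpm1, Leprot and Emc7, each with r = 0.998. Vegfa was most like Cyth1 (r = 0.991), Srsf5 (r = 0.989) and Mta2 (r = 0.985). Among the members, r was 0.991 for Hk2 with Hilpda, 0.970 for Hk2 with Vegfa and -0.989 for Hk2 with Pgk1. The libraries fall into those with and those without D, so each r mainly reflects that split.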

How the data were processed

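RNA was sequenced in 12 mouse libraries, 3 in each of 4 groups taken from the treatment label, and 1 table of FPKM values deposited by the authors was used. Its header does not name the unit; the values are per kilobase of the table's gene length, since value times length gave whole reads, within 0.05 of a whole number, for 100% of values. How the authors scaled libraries and picked the 11669 genes is not given in the sources used here. Bowtie 0.12.2 and mm8 are named per the submitters' processing notes, with no role. Gene IDs matched GENCODE M21 for 11665 genes, and coordinates were equal on GRCm38 for 11219, so positions are on GRCm38. Replicates were numbered in accession order and pair no samples.

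Genes with at least 1 FPKM in at least 3 libraries, 8615 in all, were tested. A linear model of log2(FPKM + 1), with a mean per group and all 12 libraries, was run in limma 3.58.1 (R 4.3.3) with its trend and robust options. Adjustment of the 2-sided p-values followed Benjamini-Hochberg over the 8615 genes of a comparison, and an adjusted p under 0.05 was called. The fit was tested on simulated reads in which few genes changed and each library was scaled to its read total. In the real comparisons of libraries with and without D most genes were called and the deposited scaling differed. The simulation does not cover these conditions. Hk2 shares were compared by an exact permutation test in scipy 1.17.1, and figures were drawn with matplotlib 3.10.9. Alternatives were read totals, quantile normalization, equal medians, a pseudocount of 0.1, no filter, a filter of 5 FPKM, limma without trend and robust options, only the 6 libraries compared, voom on the recovered reads, leaving out both libraries that stand apart, and leaving out each replicate.

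The text may name the 4 members, any measured gene of the glycolysis, HIF pathway, VEGF, lipid droplet and hexokinase lists, up to 5 HIF targets per direction with the smallest adjusted p in NP-D@M against NP@M, and the 3 genes most like each member; 1 gene that this rule names is not reported here. The members and lists were chosen with earlier results of these data known. Genes may share reads with near-identical copies, and since the reads carry no molecular identifiers, counting intervals cover counting error only.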

Additional observations from a re-analysis of the deposited data

How the results depend on the processing

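The falls of Hk2, Vegfa and Hilpda in NP-D@M against NP@M and in NP-D@MP against PBS kept their direction and their call under each of 16 alternatives, with adjusted p by limma of at most 0.000161. The Hk2 share of hexokinase FPKM kept its direction throughout, between -33.9 and -25.6 percentage points.

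Pgk1 changed sign between libraries with and without D under some alternatives, but stayed called higher with equal medians, at 2.61 and 2.51. In NP-D@M against NP@M its log2 fold change was -0.0829 with read totals, -0.589 with quantile normalization and -0.0831 with voom, and in NP-D@MP against PBS it was -0.226, -0.727 and -0.226; the scale factor between libraries with and without D, which read totals and voom replace, accounts for the shift of 2.17 and 2.24, and the cause under quantile normalization was not tested. The uncalled Pgk1 difference in NP-D@MP against NP-D@M was -0.0857 with read totals, -0.164 with quantile normalization, -0.0193 with equal medians and -0.086 with voom, and leaving out each replicate gave -0.0392 to 0.0935. In NP@M against PBS it was 0.0257 with quantile normalization. The uncalled Hk2 difference in NP@M against PBS was 0.0247 with read totals, 0.0326 with quantile normalization, 0.0035 with equal medians and 0.0249 with voom, and -0.141 to 0.0934 leaving out each replicate. The uncalled Hilpda difference in NP-D@MP against NP-D@M ranged from -0.575 to 0.0574 leaving out each replicate, the last without NP-D@M replicate 1. The cause of these small changes was not tested.

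Glycolysis genes called higher in NP-D@M against NP@M numbered 1 with read totals, 4 with quantile normalization and 1 with voom, and in NP-D@MP against PBS 1, 5 and 2, where those called lower numbered 12, 14 and 12. HIF targets called higher numbered 0, 6 and 0 in NP-D@M against NP@M and 1, 6 and 1 in NP-D@MP against PBS. These counts are out of 23 glycolysis genes and 30 HIF targets. Of all 8615 tested genes, quantile normalization called 2974 higher in NP-D@M against NP@M, and 2980 higher and 3161 lower in NP-D@MP against PBS. With read totals 9.12% and 9.01% of them were called higher in the 2 comparisons, and 62.4% lower in NP-D@MP against PBS. Voom called 6034 and 6099 of them either way. The cause was not tested beyond the replaced scale factor. No paired analysis was possible because replicate numbers come from accession order.

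Precision is limited by 20 to 192 reads of Hk2, Vegfa and Hilpda per library with D and by 3 libraries a group. How genes entered the table is not known here, so the shares called hold within it, and no outside standard was used here to place libraries with and without D on 1 scale.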
